A study of Mus musculus with 40 samples.

Results

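H3K27me3 peaks far from annotated promoters were described in cultured mouse oligodendrocyte precursor cells (OPCs) with and without the oncohistone H3.3 K27M. A peak counted as distal when its edge lay more than 50000 bp from the nearest annotated transcript start of the mm10 genome. Of the 176450 autosomal H3K27me3 peaks in the 5 control libraries, 19732 (11.2%) were distal, and merging them across the controls gave 10998 regions out of 78802 such regions at any distance. These 10998 regions covered 16.2 Mb, or 2.74% of the 591 Mb of autosomal sequence that lies this far from a transcript start. OPCs came from the brainstem or the dorsal telencephalon, which the labels call cortex, of P5 to P7 litters of mice labelled AMGFAP-Cre;K27M, a Cre line that the study's methods call hGFAP-Cre, on an FVB background, pooled by region and genotype. In the K27M cultures, Cre of the human GFAP promoter, active in neural stem and progenitor cells and their progeny, had switched on a knock-in allele of H3.3 K27M, and the littermates without that combination were the controls. All cells were selected on anti-PDGFRa plates after depletion of endothelial cells and microglia and were kept in proliferation medium without differentiation. ChIP-seq for H3K27me3 and for H3K4me3 gave 1 library per mark in brainstem cultures 59 and 61 and telencephalon cultures 59, 60 and 61 of each genotype, so that 5 K27M cultures had a matched control.

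H3K27me3 is the mark of Polycomb repressive complex 2 (PRC2), and in mammalian cells PRC2 gathers mostly at unmethylated CpG islands, from which the mark can spread over broad domains. H3.3 K27M replaces the lysine that carries the mark and hinders PRC2, and cells with it are known for a loss of H3K27me3 over most of the genome and its retention at some CpG islands. H3K4me3 marks active and bivalent promoters, so H3K4me3 far from any annotated start can point to an unannotated one.

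Sequence is shown for 10 regions that stand for the patterns described here, each by its 200 bp window with the most CpG, on the plus strand of GRCm38.p6, the RefSeq assembly with the coordinates of mm10, with CpG in capitals. The first 4 lie in regions with an H3K27me3 peak in all control and all K27M libraries.
Sfmbt2, chr2:10737541-10737740: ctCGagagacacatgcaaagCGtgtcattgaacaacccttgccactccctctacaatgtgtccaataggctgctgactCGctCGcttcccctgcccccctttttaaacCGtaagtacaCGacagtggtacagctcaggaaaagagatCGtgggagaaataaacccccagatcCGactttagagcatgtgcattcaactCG
Mir148a, chr6:51178596-51178795: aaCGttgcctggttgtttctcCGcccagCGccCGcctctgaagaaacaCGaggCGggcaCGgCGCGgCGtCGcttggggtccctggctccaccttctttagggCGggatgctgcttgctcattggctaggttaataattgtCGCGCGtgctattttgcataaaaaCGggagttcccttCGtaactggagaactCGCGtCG
Tenm4, chr7:96703938-96704137: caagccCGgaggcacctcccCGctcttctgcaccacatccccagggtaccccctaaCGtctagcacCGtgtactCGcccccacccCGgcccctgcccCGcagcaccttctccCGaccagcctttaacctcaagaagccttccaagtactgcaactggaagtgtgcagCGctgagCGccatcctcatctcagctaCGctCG
Gm47498, chr9:78882070-78882269: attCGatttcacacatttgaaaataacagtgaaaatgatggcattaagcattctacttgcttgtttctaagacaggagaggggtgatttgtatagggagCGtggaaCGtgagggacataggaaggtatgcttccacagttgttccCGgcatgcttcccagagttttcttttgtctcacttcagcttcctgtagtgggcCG
The next 3 windows lie in long regions with a peak in every control and in no K27M library.
Hs3st3a1, chr11:64324825-64325024: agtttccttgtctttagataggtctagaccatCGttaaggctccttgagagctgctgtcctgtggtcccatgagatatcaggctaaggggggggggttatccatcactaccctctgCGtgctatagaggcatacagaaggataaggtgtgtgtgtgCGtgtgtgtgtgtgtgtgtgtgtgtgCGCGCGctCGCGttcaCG
Begain, chr12:109192176-109192375: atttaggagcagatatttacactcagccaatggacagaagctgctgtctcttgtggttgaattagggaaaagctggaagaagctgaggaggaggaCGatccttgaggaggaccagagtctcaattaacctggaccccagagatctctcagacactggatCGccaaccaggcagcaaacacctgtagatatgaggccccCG
Cypt12, chr3:17582577-17582776: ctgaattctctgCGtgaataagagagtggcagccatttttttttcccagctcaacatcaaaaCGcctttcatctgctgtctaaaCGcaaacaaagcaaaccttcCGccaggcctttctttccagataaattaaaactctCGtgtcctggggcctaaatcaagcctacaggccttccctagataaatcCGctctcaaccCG
The last 3 lie in regions that overlapped an H3K4me3 peak in all 10 H3K4me3 libraries.
Rims1, chr1:22533681-22533880: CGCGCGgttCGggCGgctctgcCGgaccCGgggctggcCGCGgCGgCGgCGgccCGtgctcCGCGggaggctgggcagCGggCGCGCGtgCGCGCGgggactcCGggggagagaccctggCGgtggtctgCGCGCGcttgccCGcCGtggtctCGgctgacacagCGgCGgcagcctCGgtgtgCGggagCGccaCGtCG
Hmga2, chr10:120552434-120552633: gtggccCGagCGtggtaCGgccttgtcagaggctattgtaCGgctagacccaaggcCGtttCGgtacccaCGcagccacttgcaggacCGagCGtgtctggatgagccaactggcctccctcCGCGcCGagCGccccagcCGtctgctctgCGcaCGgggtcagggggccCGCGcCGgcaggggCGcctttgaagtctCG
Zbtb43, chr2:33544097-33544296: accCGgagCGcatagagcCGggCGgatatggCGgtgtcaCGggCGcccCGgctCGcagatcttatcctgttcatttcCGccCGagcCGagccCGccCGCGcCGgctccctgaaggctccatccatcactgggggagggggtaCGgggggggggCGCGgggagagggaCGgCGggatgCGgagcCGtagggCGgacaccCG
These windows held 5 to 20 CpG in the first set, 3 to 9 in the second and 21 to 37 in the third. Regions of the third set were chosen for the most CpG, so the higher counts there follow from the choice. The Sfmbt2 window lay under an H3K4me3 peak in 8 of 10 libraries, the Rims1 and Hmga2 windows in 10 and the Zbtb43 window in 9. Mir148a had 1 such library, and the other 5 windows had none. H3K27me3 peaks of a region did not always reach its window. The Sfmbt2, Mir148a, Tenm4 and Gm47498 windows had an H3K27me3 peak in 4, 2, 4 and 5 controls. In K27M they had one in 2, 5, 3 and 5 libraries. The Hs3st3a1, Begain and Cypt12 windows had one in 2, 2 and 5 controls and in 0 K27M libraries. The Rims1, Hmga2 and Zbtb43 windows had one in 3, 4 and 3 controls and in 0, 0 and 1 K27M libraries.

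The lists differed in size before any choice of distance. Autosomal H3K27me3 peaks numbered 12526 to 53757 in the controls and 3941 to 7770 in K27M. The autosomal part of a list also varied. In brainstem 61 it was 7770 of 12738 K27M peaks against 25366 of 25632 control peaks. In telencephalon 60 it was 7639 of 15753 against 33571 of 49615, and in telencephalon 61 6427 of 8284 against 51230 of 64808. The part of this in the results was not tested. Read depth is unknown from the peak lists. In the read totals listed for these libraries, the K27M library was the shallower in 3 of 5 pairs, all but brainstem 61 and telencephalon 60, and in 4 of 5 pairs by non-duplicate reads, all but telencephalon 60. Telencephalon control 59, the control with the fewest peaks, had the most reads in that list. H3K4me3 at marker genes was read as a check of the labelled cell type. Promoters of 7 of 7 OPC markers (Pdgfra, Cspg4, Olig1, Olig2, Sox10, Ptprz1 and Nkx2-2) had a peak in all 10 libraries, against 0 of 4 microglial, 0 of 4 endothelial, 0 of 4 astrocyte and 4 of 5 neuronal markers. Of the microglial markers, Aif1, Csf1r and Cx3cr1 had none in any library and P2ry12 had one in 8, and of the endothelial markers Pecam1, Cdh5 and Tek had none and Cldn5 had one in 5. The astrocyte markers Gjb6, Gfap, Aldh1l1 and Aqp4 had one in 9, 6, 6 and 1 libraries. H3K4me3 also marks promoters of genes that are not transcribed, and the part of other cells in the results was not tested.

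Most distal regions were short and were found in 1 library. Their length had a median of 711 bp (quartiles 445 and 1448 bp) and a range of 287 to 88509 bp, and the 516 regions over 5000 bp held 32.1% of the covered length. A control peak was present in 1 library at 7459 regions, in 2 at 1763, in 3 at 791, in 4 at 552 and in all 5 at 433. The 433 were 3.94% of the distal regions, against 6.52% of all autosomal control regions and 16.7% of the 16822 regions within 2000 bp of a transcript start, called promoter-near here. Of the regions seen once, 3110 came from brainstem control 59 and 2891 from telencephalon control 61, the libraries with the most peaks, and 94 from telencephalon control 59, the library with the fewest. Median length grew with the number of libraries, from 530 bp in 1 to 5697 bp in 5.

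The word intergenic held for part of these regions. No annotated gene body overlapped 7806 of them, while 3192 (29.0%) lay in a gene, 2972 of these in introns alone and 220 over an exon. Gene bodies made up 26.96% of all sequence this far from a start. The nearest transcript start was 78.6 kb away at the median and 481 kb at most, and it belonged to a protein-coding gene at 3049 regions. By chromosome, regions were spread unevenly, from 9.21 per Mb of distal sequence on chromosome 10 to 40.3 on chromosome 7.

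Distal peaks of the controls were weak by enrichment over input, as most promoter-near peaks of the same lists were. The median fold enrichment of distal peaks was 2.29 and 2.81 in brainstem controls 59 and 61, and 2.53, 2.49 and 2.26 in telencephalon controls 59, 60 and 61. For promoter-near peaks it was 2.45 and 2.98, and 2.47, 2.75 and 2.44. Distal medians were lower in 4 of 5 controls, with telencephalon 59 the exception, and the mean difference of −0.14 (SD 0.12, n = 5) had p = 0.125 (exact permutation test flipping the signs of the 5 differences, two-sided). Distal peaks were shorter, with medians of 639 to 779 bp against 1329 to 1661 bp.

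In K27M, distal H3K27me3 peaks covered less sequence than in every matched control. They spanned 9.02 and 3.68 Mb in brainstem controls 59 and 61, and 1.06 and 1.26 Mb in their K27M partners. Telencephalon controls 59, 60 and 61 had 2.03, 4.95 and 9.12 Mb, and their K27M partners 0.577, 1.14 and 0.874 Mb. All 5 K27M libraries lay below all 5 controls, and the controls differed among themselves far more than the K27M libraries did. The log2 ratio of K27M to control was −3.08 and −1.54 in brainstem pairs 59 and 61 and −1.81, −2.12 and −3.38 in telencephalon pairs 59, 60 and 61. Its mean was −2.39 (SD 0.81, n = 5), or 0.191 times the control length, with an exact sign-flip p = 0.0625. This p came from a two-sided permutation test over all sign changes of the pair differences, and 5 pairs cannot give a smaller one. The test treats the 5 pairs as independent, although numbers 59 and 61 occur in both brain regions. No comparison over these pairs could therefore pass 0.05. In telencephalon 60, where the K27M library had more reads by both counts, the ratio was −2.12, and in brainstem 61, where it had more reads in total but fewer non-duplicate reads, it was −1.54. With the strongest 3941 peaks taken from each list, the mean was −0.88 and still lower in 5 of 5 pairs.

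**Figure D1:**
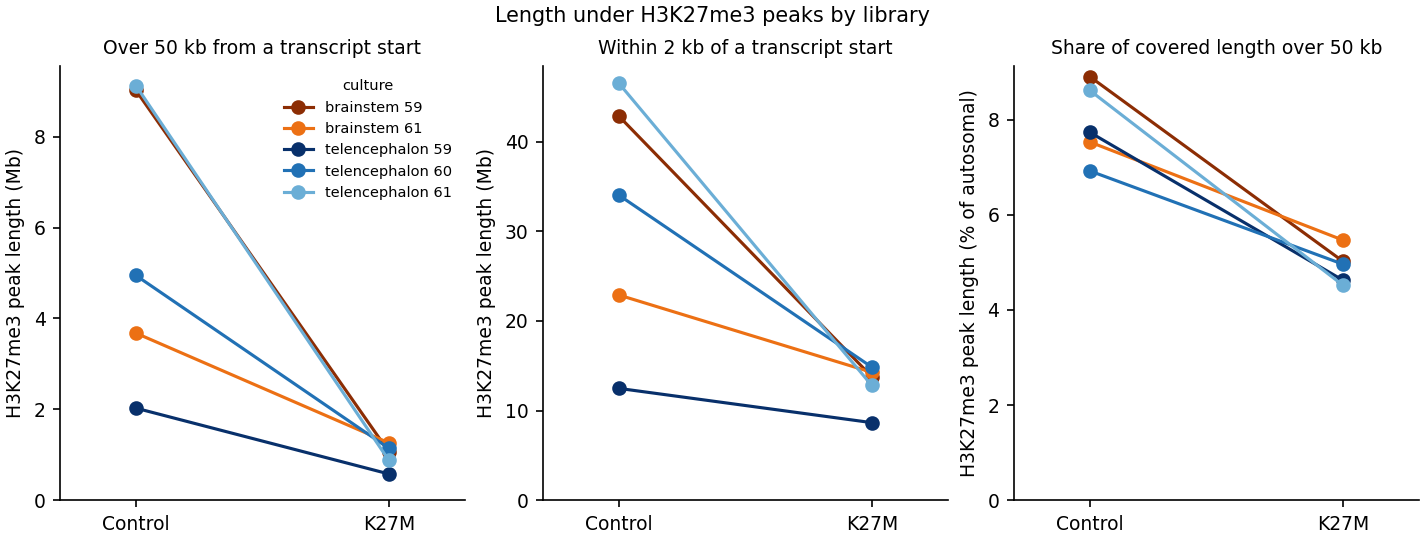
Length under H3K27me3 peaks of each library in Mb, for peaks over 50 kb from a transcript start (left) and within 2 kb of one (middle), and the distal share of all autosomal peak length in percent (right). Each line joins the control and the K27M library of 1 culture, and the distal share was 6.92% to 8.90% in the controls and 4.52% to 5.47% in K27M.

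The share of peak length that was distal was also lower in each K27M library. It was 8.90% and 7.53% in brainstem controls 59 and 61 and 7.73%, 6.92% and 8.61% in telencephalon controls 59, 60 and 61. Their K27M partners had 5.02%, 5.47%, 4.63%, 4.96% and 4.52%, and the groups did not overlap. Promoter-near length had a mean log2 ratio of −1.18 (SD 0.58, n = 5), so that distal length differed from it by −1.21 (SD 0.30, lower in 5 of 5 pairs, exact sign-flip p = 0.0625). This extra difference was −0.14 (SD 0.37) with the strongest 3941 peaks of each list, negative in 3 of 5 pairs (exact sign-flip p = 0.5625), and −0.65 among peaks of at least 3-fold enrichment.

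Beyond 2 kb from a start, every distance class had a similar mean ratio. The mean log2 ratio was −1.18 for peaks up to 2 kb from a start, −2.44 from 2 to 10 kb, −2.28 from 10 to 50 kb, −2.44 from 50 to 100 kb, −2.18 from 100 to 200 kb and −2.94 farther out. The last class held only 9 to 30 K27M peaks per library. Peaks between 2 and 50 kb together had a mean ratio of −2.35 (SD 0.69), and the distal ratio minus theirs was −0.12 and 0.02 in brainstem pairs 59 and 61 and 0.04, 0.10 and −0.23 in telencephalon pairs 59, 60 and 61. This difference, with a mean of −0.04 (SD 0.13) and a negative sign in 2 of 5 pairs, was computed after the data were seen and was not tested.

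**Figure D2:**
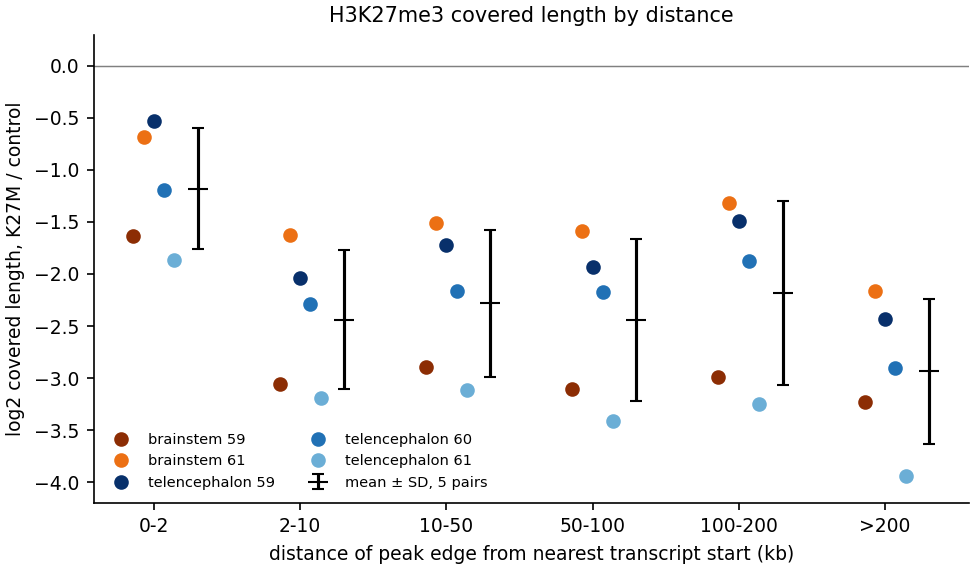
Log2 ratio of K27M to control in the length under H3K27me3 peaks, by distance of the peak edge from the nearest transcript start in kb. Points are the 5 matched pairs and bars the mean ± SD; the mean was −1.18 within 2 kb and between −2.18 and −2.94 in the classes beyond.

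Few distal regions had a peak in K27M, as was so for control regions at any distance. Of the 10998 distal regions, 7459 had a peak in only 1 control library, so most did not recur among controls either. No K27M library had a peak at 10403 of the 10998 regions (94.6%), against 91.3% of all autosomal control regions and 77.9% of promoter-near regions. Every K27M library had one at 110 distal regions (1%), against 2.56% of all control regions and 8.87% of promoter-near regions. By library, a K27M peak lay at 2.84% and 3.73% of the regions in brainstem 59 and 61 and at 1.57%, 3.36% and 2.43% in telencephalon 59, 60 and 61. Regions built from a library favor that library, so each pair was also judged on regions from the controls of the other 4 pairs. These regions too were chosen through control peaks alone, so a lower share in K27M follows in part from the choice. The controls then had a peak at 40.4% and 14.7% of the regions in brainstem 59 and 61 and at 7.38%, 21.3% and 40.6% in telencephalon 59, 60 and 61. Their K27M partners had one at 3.81%, 3.91%, 1.499%, 3.59% and 3.12%. The mean difference was −21.7 percentage points (SD 14.6, exact sign-flip p = 0.0625), with K27M the lower in 5 of 5 pairs, and −5.92 points with 3941 peaks per list. At promoter-near regions chosen in this way, the means were 16.6% in K27M and 46.5% in controls.

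Regions that recurred among controls recurred more often in K27M. A peak was present in at least 1 K27M library at 51 of the 7459 regions of 1 control, 43 of 1763 of 2, 68 of 791 of 3, 140 of 552 of 4 and 293 of 433 of 5. Of the 433, 140 had no K27M peak and 105 had one in all 5 K27M libraries. The 105 were longer, with a median of 12746 bp against 3898 bp for the 140, and in the controls their median fold enrichment was higher at 4.30 against 2.73. Here and below, a region's fold enrichment in a library is that of its strongest peak there. Compared by length, the share of retained regions was lower for distal than for promoter-near regions above 2000 bp and not below. Among regions of all 5 controls and over 10000 bp, every K27M library had a peak at 65 of 114 distal (57.0%) and 782 of 1066 promoter-near regions (73.4%), from 5000 to 10000 bp at 27 of 130 (20.8%) and 514 of 1092 (47.1%), and from 2000 to 5000 bp at 9 of 134 (6.72%) and 146 of 625 (23.4%). Up to 2000 bp it had one at 4 of 55 distal (7.27%) and 2 of 31 promoter-near regions (6.45%), and no K27M library had a peak at 41.8% of the former and 64.5% of the latter. These are shares of regions, given without a test.

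**Figure D3:**
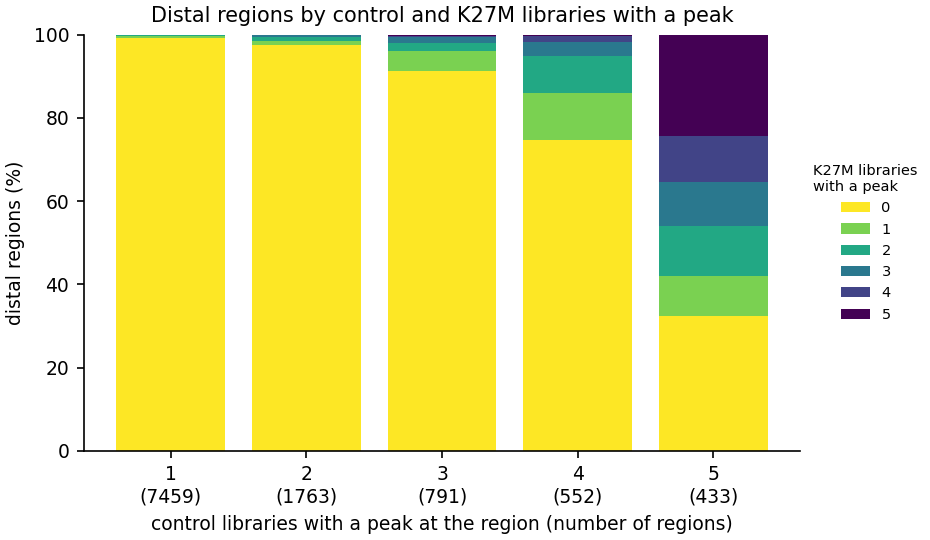
Share of distal regions in percent by the number of K27M libraries with a peak (colors, 0 to 5), for regions with a peak in 1 to 5 control libraries (number of regions in parentheses). No K27M library had a peak at 99.3% of regions of 1 control and at 32.3% of regions of all 5.

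Each control peak was also asked whether the matched K27M list overlapped it. This was so for 4.04% and 14.6% of distal peaks in brainstem pairs 59 and 61 and 15.7%, 9.72% and 3.71% in telencephalon pairs 59, 60 and 61. For promoter-near peaks, the shares were 21.5%, 44.8%, 46.5%, 32.4% and 21.8%. The difference averaged −23.9 points, and −6.10 points (SD 5.11, negative in 5 of 5 pairs, exact sign-flip p = 0.0625) once peaks were matched on 4 classes each of length and fold enrichment. With CpG density in place of fold enrichment it was −3.04 points, also in 5 of 5 pairs. Without matched pairs the exact permutation p was 0.317.

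The distal peaks that K27M cells had were mostly peaks of the controls too. Between 96.6% and 97.1% of the 301 to 613 distal K27M peaks per library overlapped a peak of some control, and 81.1% to 90.1% one of the matched control. Of these, 10 to 19 per library lay outside all control peaks. Promoter-near K27M peaks were shared more often in each library, at 99.2% to 99.8% with some control and 93.4% to 98.5% with the matched one, given without a test or a match on length.

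Of the 105 regions with a peak in all 10 H3K27me3 libraries, 94 were wider in controls by the median over libraries. Peaks covered 0.912 to 1.39 Mb of the 105 together in the controls and 0.479 to 0.816 Mb in K27M. Only length inside bounds drawn from control peaks was counted, so a smaller K27M width follows in part from the rule. Fold enrichment, read from the strongest peak of each region in each library, did not follow width. Its median over the 105 regions was 4.25 and 4.42 in brainstem controls 59 and 61 and 3.34, 4.97 and 4.12 in telencephalon controls 59, 60 and 61, and 3.87, 5.04, 3.02, 4.00 and 4.01 in their K27M partners. The K27M median was the higher at 49 of the 105, against 995 of 1444 promoter-near regions with a peak in all 10. Enrichment is relative to input within a library and was not scaled by the spike-in, so it gives no absolute amount of the mark. Strongest peaks of unequal width were also compared, and the part of width in these values was not tested.

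Single retained regions were chosen by the enrichment of their weakest K27M library, so that high K27M values in them follow in part from the choice and are given as a description. The strongest lay at chr6:51167514-51201631, 34.1 kb of sequence outside any gene, 68.3 kb from Mir148a, a microRNA gene, and 231 kb from Nfe2l3, the nearest protein-coding start. Fold enrichment there was 7.41 and 8.42 in brainstem controls 59 and 61 and 6.56, 13.0 and 9.16 in telencephalon controls 59, 60 and 61. In K27M it was 20.9 and 23.9 in brainstem and 9.28, 19.6 and 21.7 in telencephalon, higher in each pair although the groups overlapped. The covered width was nearly the same, 29.3 kb at the median in controls and 25.6 kb in K27M. At chr7:96703900-96718676, over an exon of Tenm4, a teneurin of neuronal connections, enrichment was 6.01 and 4.77 in brainstem controls and 3.87, 6.92 and 6.15 in telencephalon controls, and 6.27, 9.18, 5.35, 7.57 and 10.4 in the K27M partners. These K27M values were the higher in each pair, with a median width of 14.8 kb in both genotypes. A short region of 2.32 kb near the pseudogene Gm47498 and 265 kb from Cd109 was covered whole by the median library of both genotypes, with 6.27 to 7.49 in controls and 5.05 to 9.78 in K27M.

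Other retained regions had less width under K27M peaks, counted inside bounds drawn from control peaks. In the region 139 kb from Rgmb, a co-receptor of bone morphogenetic proteins, peaks covered 17.7 kb at the median in controls and 10.1 kb in K27M. In that 120 kb from Cntnap4, a neuronal adhesion protein, they covered 13.8 and 10.5 kb. Near Uncx, a homeobox factor of the somites and brain, the widths were 6.85 and 4.53 kb with enrichments of 3.24 to 8.02 in controls and 4.55 to 10.8 in K27M. At chr2:74416544-74437737, 95.4 kb from Lnpk in the gene desert beside the HoxD cluster, they were 19.6 and 10.8 kb. The nearest protein-coding gene had H3K27me3 at its promoter in all 5 controls for 6 of the 8 strongest retained regions, the exceptions being Cd109 with 2 controls and Lnpk with 0.

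The longest region, 88.5 kb at chr2:10720701-10809209, lay 348 kb from Sfmbt2, an imprinted Polycomb-group gene, and outside any gene body. Peaks covered 85.7 and 75.4 kb of it in brainstem controls 59 and 61 and 70.5, 82.3 and 86.0 kb in telencephalon controls 59, 60 and 61. In K27M they covered 43.5 and 50.2 kb in brainstem and 36.0, 48.8 and 41.0 kb in telencephalon, so all K27M libraries lay below all controls. The region was chosen as the longest run of merged control peaks, so this separation follows in part from the choice. The highest enrichment in it was 5.69 to 8.48 in controls and 4.65 to 10.2 in K27M. An H3K4me3 peak lay at the same place inside the region in all 10 libraries, beginning between −28.4 and −27.7 kb from its centre, with a fold enrichment of 3.13 to 6.61. The CpG-rich window shown for Sfmbt2 was at that place.

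**Figure D4:**
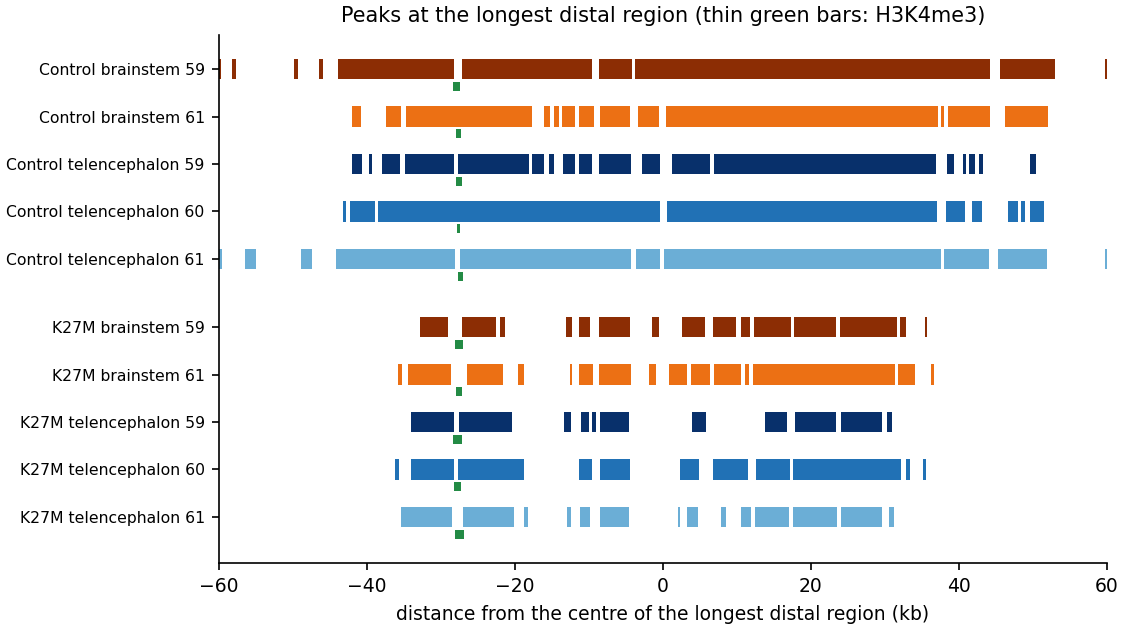
Peaks of each library over the longest distal region and its surroundings, by distance from the region's centre in kb. Thick bars are H3K27me3 peaks, thin green bars below them H3K4me3 peaks of the same culture; H3K27me3 covered 70.5 to 86.0 kb of the region in controls and 36.0 to 50.2 kb in K27M.

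Among the other 4 longest regions, the K27M remnant varied. They too were chosen by the length of merged control peaks, so smaller K27M widths follow in part from the choice. At chr1:190661841-190728128, 66.3 kb over an exon of the kinase-like gene Rps6kc1, peaks covered 66.2, 48.1, 15.8, 48.4 and 57.8 kb in the controls in the order above and 17.3, 21.3, 5.64, 21.4 and 13.6 kb in K27M, and H3K4me3 was present in all 10 libraries. The 62.6 kb region that lay 136 kb from Hs3st3a1, a heparan sulfate sulfotransferase, had 46.2 kb at the median in controls and 28.7 kb in K27M. The 55.3 kb region in an intron of the ion channel gene Asic2 had 31.6 and 13.4 kb. At Rbfox3, the neuronal splicing factor known as NeuN, 59.8 kb of the gene were covered, with 53.2 and 21.6 kb in brainstem controls and 3.85, 28.5 and 58.8 kb in telencephalon controls. K27M kept 1.61 and 2.80 kb there in brainstem and 0, 3.12 and 2.72 kb in telencephalon, all less than any control. The Rbfox3 promoter itself had H3K27me3 in 5 of 5 controls and 5 of 5 K27M libraries.

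The 8 longest regions with a peak in every control and in no K27M list had lower enrichment in the controls. The longest, at chr3:17571396-17597181, 73.5 kb from the pseudogene Gm38154 and 351 kb from Cypt12, covered 25.8 kb. Its control peaks spanned 11.5 and 13.7 kb in brainstem and 19.4, 19.4 and 25.8 kb in telencephalon, with enrichments of 2.66, 3.81, 3.61, 3.69 and 3.89. No K27M library had a peak in it. The next was 24.9 kb long and 86.4 kb from Hs3st3a1. It was followed by 24.3 kb at chr12:109192042-109216335, 124 kb from Begain, a synaptic scaffold gene, and by 16.2 kb in an intron of Nxph2, a neurexin ligand. Further ones, with their length in parentheses, lay 347 kb from Atp10a (14.4 kb), 402 kb from Cdh26 (12.1 kb) and 386 kb from Cypt12 (11.1 kb). The last lay 59.0 kb from Lnpk (10.7 kb), on the HoxD side of the Lnpk region that was retained. Across these 8, the highest control enrichment was 2.86 to 3.89, below the 6.82 to 13.0 of the 8 strongest retained regions, a property by which the latter were in part chosen.

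Neighbouring regions lay together in some gene deserts. Regions lay in 1849 stretches between adjacent transcript starts, with a median of 3 regions per stretch. The 100 fullest stretches held 37.4% of the region length and the 8 fullest 6.11%. Stretches were ranked by this length, so a high share follows in part from the ranking, and their share of distal sequence was not compared. Region length came from control peaks, so a lower K27M than control length in these stretches also follows in part from the ranking. The fullest, 561 kb between Cdh26 and Gm14314 with the cadherin gene Cdh4 421 kb farther on, had 69 regions and 163 kb. Peaks covered 105 and 54.6 kb of it in brainstem controls and 14.9, 73.5 and 137 kb in telencephalon controls, and 4.46, 12.01, 3.70, 18.4 and 16.3 kb in K27M. In the stretch upstream of Rbfox1, a neuronal splicing factor, 72 regions and 110 kb were found, with 50.1 and 14.6 kb in brainstem controls, 2.10, 37.6 and 91.5 kb in telencephalon controls and 0 kb in every K27M library. By contrast, the stretch downstream of Sfmbt2 kept 43.5, 50.2, 36.0, 49.7 and 41.0 kb in K27M of 73.3 to 107 kb in controls. Other stretches among the 8 lay beside Hs3st3a1, Asic2, Smad2, Rps6kc1 and Cypt12, with 106 to 141 kb under regions each.

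CpG content went with recurrence and with the K27M lists. All distal sequence had 0.630 CpG per 100 bp, a single density and not a median over regions. The distal regions had a median of 0.644, below the 1.14 of promoter-near regions. It was 0.596 in regions of 1 control and 0.781 in regions of all 5. Within the latter, it was 0.598 where no K27M library had a peak, 0.802 where 1 to 4 had and 0.863 where all 5 had. Soft-masked repeats made up 17.6% of the median region and, as a single share, 36.4% of all distal sequence. A median over regions and a share of all bases can differ, so these values do not show fewer repeats in the regions. A window of 200 bp with at least 50% GC and a ratio of observed to expected CpG of at least 0.6, called island-like here, was found in 16.4%, 26.1% and 45.7% of these 3 groups, which also differ in length. Among regions of all 5 controls and over 5000 bp, 46 of 97 with an island-like window (47.4%) and 46 of 147 without (31.3%) had a peak in every K27M library. Longer regions hold more windows, and the part of length in these shares was not tested further.

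**Figure D5:**
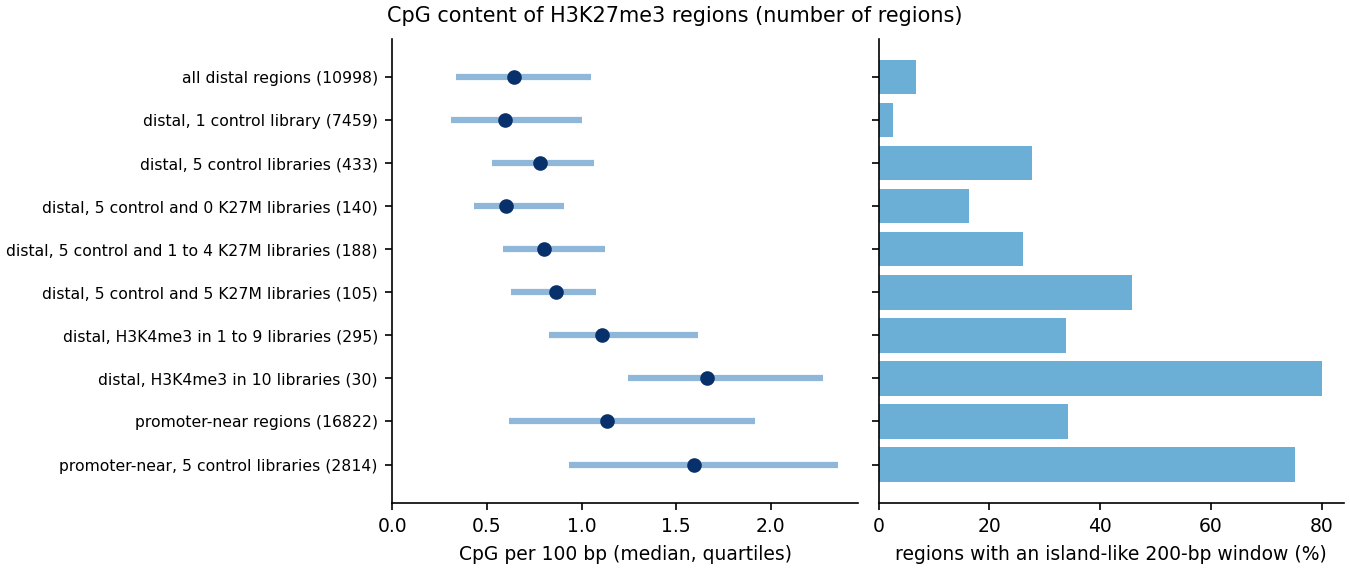
CpG per 100 bp (left; points are medians over regions and bars the quartiles) and the share of regions in percent with an island-like 200 bp window (right), by group with the number of regions in parentheses. Regions of all 5 controls had a median of 0.598 CpG per 100 bp without and 0.863 with a peak in every K27M library, and those with H3K4me3 in 10 libraries 1.66.

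H3K4me3 was rare at distal regions in both genotypes. At least 1 library had an H3K4me3 peak at 325 regions (2.96%), against 10.2% of all autosomal control regions and 33.5% of promoter-near regions. Brainstem controls 59 and 61 had H3K4me3 at 102 and 105 regions, and telencephalon controls 59, 60 and 61 at 78, 126 and 170. In K27M the numbers were 182 and 79 in brainstem and 90, 140 and 194 in telencephalon. The share of regions differed by 0.189 percentage points (SD 0.347, higher in K27M in 4 of 5 pairs, exact sign-flip p = 0.375), which does not show that the genotypes were equal. Of the 433 regions of all 5 controls, H3K4me3 was present in at least 1 library at 15 of the 140 without a K27M H3K27me3 peak, 37 of the 188 with 1 to 4 and 42 of the 105 with all 5.

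All 10 H3K4me3 libraries had a peak at 30 distal regions (0.273%), against 4.21% of all autosomal control regions. Their median of 1.66 CpG per 100 bp was close to the 1.60 of promoter-near regions of all 5 controls, and 24 of the 30 had an island-like window. In 19, the 200 bp with the most CpG lay under H3K4me3 in all 10 libraries. H3K27me3 was present in all 5 controls at 15 of the 30, in all 5 K27M libraries at 6 and in no K27M library at 14. The richest in CpG, at chr2:33543041-33544974, lay 74.5 kb from Zbtb43, a zinc finger gene, with 4.81 CpG per 100 bp. It was followed by a region 74.6 kb from Hmga2, an architectural chromatin protein of progenitors, with 4.23, and by one over an exon of Rims1, a presynaptic scaffold gene, 99.2 kb from its nearest start, with 3.47. The Hmga2 region had H3K27me3 enrichments of 2.83, 2.38, 0, 3.08 and 2.75 in the controls in the order above, where 0 stands for no peak, and no peak in K27M. At a region 141 kb from Kcnk1, a potassium channel gene, they were 4.84, 4.00, 1.81, 5.44 and 5.64 in controls. In K27M they were 2.93, 3.33, 0, 3.07 and 3.03, lower in each pair. Regions 279 kb from Robo1, an axon guidance receptor, and 61.5 kb from Acan, which encodes aggrecan, completed the 6. They had 2.53 and 2.52 CpG per 100 bp, H3K27me3 in 3 and 2 controls and none in K27M.

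Some distal regions were marked in the controls of 1 brain region. Both brainstem controls and no telencephalon control had a peak at 127 of the 10998 regions, and all 3 telencephalon and no brainstem controls at 46. The numbers of libraries differ and a missing peak can lie just under the threshold, so these counts were not compared. The same counts were not made over all autosomal control regions, so these show nothing particular to distal regions. In K27M, the 127 had a peak in brainstem libraries at 13 and in telencephalon libraries at 2. The 46 had one in telencephalon libraries at 5 and in brainstem libraries at 0. That 0 rests on 2 brainstem K27M libraries and on regions that are not independent, so it does not show absence of the mark. Of the 433 regions of all 5 controls, 58.0% had a peak in a brainstem K27M library and 60.0% in a telencephalon one. The longest of the 127 lay at chr19:14876336-14890543, 278 kb from Tle4, a transcriptional co-repressor. Its enrichment was 2.42 and 5.12 in brainstem controls 59 and 61 and 7.201 and 7.03 in brainstem K27M, and no telencephalon library had a peak. A second region beside it, 11.4 kb long, had 2.29 and 5.04 in controls and 6.27 and 6.33 in K27M, so both were higher in K27M in both pairs. The others were in an intron of Pebp4, 74.6 kb from Egr3, an immediate-early factor, and 1093 kb from Cdh8, a cadherin, where 1 telencephalon K27M library also had a peak. The 4 longest of the 46 lay in introns, 2 in the protocadherin gene Pcdh9 (6.81 and 5.79 kb), 1 in Cadm1 (6.01 kb) and 1 in Robo1 (4.91 kb). Enrichment in telencephalon controls 59, 60 and 61 was 5.45, 4.60 and 3.12 at the longer Pcdh9 region, where K27M had a peak of 2.71 in telencephalon 61 alone. Over all distal peaks, the covered length of telencephalon relative to brainstem controls had a log2 ratio of −0.35 (p = 0.9, two-sided exact permutation test, smallest possible p = 0.1). It was 0.29 without brainstem control 59 and 0.22 without telencephalon control 59.

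The genes nearest to distal regions often had H3K27me3 at their own promoters. The regions had 1546 nearest protein-coding genes, and 41.2% of these had H3K27me3 at a promoter in at least 3 controls, against 30.7% of the 3438 genes that border sequence this far from a start and 22.4% of all 20780 autosomal protein-coding genes. For the 267 genes nearest to regions of all 5 controls the share was 55.1%, and in at least 3 K27M libraries it was 27.3%, against 14.8% of the bordering genes. By gene group, developmental transcription factors were 4.98% of the 1546 genes, cell adhesion and axon guidance genes 4.53% and ion channels and neurotransmitter receptors 4.08%, against 3.32%, 3.14% and 3.40% of the bordering genes. Of the regions of all 5 controls, 48 lay nearest to a developmental transcription factor and 31 to an adhesion or guidance gene. A K27M peak was present at 30 of the 48 (62.5%) and 24 of the 31 (77.4%), against 67.7% of all 433. Of olfactory and vomeronasal receptor genes, 1433 in number and clustered in the genome, only 29 border sequence this far from a start. Of OPC and oligodendrocyte genes, 6 do. In this order they were 0.388% and 0.129% of the 1546 genes, against 0.844% and 0.175% of the bordering genes. Olfactory and vomeronasal receptor genes had 12 regions and OPC and oligodendrocyte genes 7, none of them in all 5 controls. Nearness gives no target, and these shares are descriptions without a test.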

How the data were processed

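Peak lists of 20 ChIP-seq libraries were used, from 5 control and 5 K27M cultures for each mark, and the input libraries were not analysed here. Per the submitters' processing notes and the study's methods, the authors mapped reads to mm10 (BWA 0.7.17-r1188), and MACS2 2.2.7.1 called each library's peaks with that library's input as background, with a broad cutoff of 0.1 for H3K27me3 and without the spike-in. Libraries with few peaks had been removed by the study. The deposited files give each peak's position, a ratio to input (fold enrichment), and its p-value and q-value as −log10. A region without a peak can hold signal under the caller's threshold.

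Distances were taken from the peak's edge to the 125891 distinct autosomal transcript starts of GENCODE M21, where the study used M25. Distal control peaks that touched were merged, and overlap meant at least 1 bp. Sequence came from GRCm38.p6. A promoter ran from 2000 bp before to 1000 bp after a start. Python 3.11.15, numpy 2.4.6, pandas 2.3.3 and scipy 1.17.1 were used. Simulated data served to test the coverage, distance, matching and permutation functions. Pairs share a culture number and the study describes them as matched. Across the 10998 regions, which are not independent, deviations of the presence of an H3K27me3 peak from the group means correlated within pairs at r = 0.003 in the brainstem and −0.01, 0.05 and −0.02 in telencephalon 59, 60 and 61, and for H3K4me3 at 0.09 and 0.30, 0.09 and 0.18. P-values measure the spread between these pairs, taken as independent. Culture numbers 59 and 61 occur in both brain regions. Whether cultures of the same number share litters is not stated, so the pairs may not be independent. The regions, gene lists and rule for naming regions were chosen with earlier results of these data known. That rule took the 8 regions in all 10 lists with the highest lowest K27M enrichment, the 8 longest in all controls and no K27M list, the 6 with H3K4me3 in 10 libraries and most CpG, the 5 longest, the 4 longest of each brain region and the 8 fullest stretches. Of the sequences, the Sfmbt2 window was added after its values were seen. Alternatives were other distances, protein-coding starts, stricter peaks, equal numbers of peaks, other overlaps, no pairing and each culture left out.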

Additional observations from a re-analysis of the deposited data

How the results depend on the processing

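The sign of the mean of each tested difference between genotypes held under every alternative run, and none reached 0.05 over the 5 pairs. For H3K4me3 at distal regions, K27M was the higher in 2 of 5 pairs, not 4, at 20000 bp (mean 0.0433 points, exact permutation p = 0.9375) and with protein-coding starts only (0.0598, p = 0.875). With genotype labels permuted within each brain region in place of the replicate block, the exact permutation p was 0.0167 for the covered length of −2.39, for its difference of −1.21 from promoter-near length and for the held-out difference of −21.7 points. The held-out regions were chosen through control peaks, so that last difference follows in part from the choice. The 10998 regions became 27227 at 20000 bp, 3535 at 100000 bp, 28769 with protein-coding starts only, 1097 at 3-fold enrichment, 1745 at −log10 q of 3 and 3539 where at least 2 controls overlapped, and 8338 to 10876 with 1 control left out. In the same order the share without a K27M peak was 93.5%, 95.4%, 94.3%, 74.1%, 85.0% and 84.6%, it was 44.7% of 445 regions with 3941 peaks per list and 97.8% with at least 50% of a region covered, and 93.1% to 95.0% with 1 culture left out. The share with a peak in every K27M library was 1.21%, 1.07%, 1.21%, 4.10%, 3.32% and 3.11%, 17.5% with equal lists, 0.145% with 50% covered, 1.22% with peaks up to 1000 bp apart merged and 1.09% to 1.46% with 1 culture left out. The share inside genes was 32.2%, 28.1%, 30.7%, 30.2%, 30.7% and 30.1%. The telencephalon to brainstem ratio of the controls ranged from −1.002 to 0.29 with 1 control left out, at 0.29 without brainstem 59 and 0.22 without telencephalon 59. Read depth entered no comparison, and its part was not tested.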
